A study of Homo sapiens with 28 samples.

Results

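The 38 genes described here encode the glycolytic enzymes, the glucose and lactate carriers and a group of proteins whose genes are textbook targets of the hypoxia-inducible factors (HIFs). They were chosen by name, as the rows of both count tables whose GENCODE identifier belongs to a listed gene, and all 38 were found among the 62703 genes counted. By role they comprise 2 glucose carriers, 2 hexokinases, 7 genes of the upper steps of glycolysis, 2 regulators of fructose 2,6-bisphosphate, 6 genes of the lower steps, 6 of lactate and pyruvate handling, 2 carbonic anhydrases, 2 secreted factors, 4 stress and mitophagy genes, and 5 oxygen-dependent hydroxylases and demethylases.

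In glycolysis, glucose is taken up, phosphorylated by a hexokinase, split into triose phosphates and converted to pyruvate, which is either oxidised in mitochondria or reduced to lactate and exported together with a proton. When oxygen is scarce, the prolyl hydroxylases can no longer mark the alpha subunits of HIF for breakdown, and the stabilised factor binds the core motif RCGTG (R is A or G) near many of these genes. Colorectal tumours often run glycolysis at a high rate also in the presence of oxygen, and many of these genes are expressed in cultured lines without hypoxia.

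TWIST1, a basic helix-loop-helix factor of the epithelial-to-mesenchymal transition, was removed or reduced in 2 human colorectal cancer (CRC) lines, and RNA was sequenced to find the genes that respond. MDST8, which belongs to the mesenchymal CMS4 subtype, contributed WT cells and 5 TWIST1 knockout clones made with CRISPR-Cas9 and named 1.1, 2.2, 3.2, 3.5 and 3.6, each grown from a single sorted cell. LoVo, a line of another subtype with a TWIST1 wild-type genotype in its labels, contributed cells labelled shRNA control and cells labelled TWIST1 shRNA. Each of the 8 groups has 3 libraries, 24 in all, and 1 TWIST1 ChIP-seq peak list per line was also used. Cells were kept in DMEM with serum, and the labels name no low-oxygen treatment for any group. Each clone is 1 cell line grown from 1 cell, and the labels of the WT cells name no clone. Loss of TWIST1 and differences between clones of the parent therefore cannot be told apart within a clone. Clones 3.2, 3.5 and 3.6 carry the same clone code in their labels. No label says that the 3 libraries of a group came from separate cultures, and the p-values below then measure only the spread between these libraries, which may be technical.

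Total counts ran from 16567606 to 22217009 per library. TWIST1 itself had 845, 1034 and 797 counts in MDST8 WT and 553 to 1195 in the clones, so its RNA does not check an edit of the coding sequence. In LoVo it had 73, 89 and 93 counts with the TWIST1 shRNA label and 0 in each library with the shRNA control label, which goes against those labels, and directions in LoVo are given below as the libraries are labelled. In the study, TWIST1 in LoVo knockdown cells was also examined as protein by western blot and as mRNA by qRT-PCR. Neither was analysed here. Among the 8 markers of colon epithelium, CDX2 and CDH1 had 0 counts in MDST8 WT and the summed level was 64.3 to 135 CPM across the MDST8 libraries, against 9050 to 16355 CPM for 6 mesenchymal markers. In LoVo the epithelial sum was 7888 to 8105 CPM with the control label and 4569 to 5150 CPM with the TWIST1 shRNA label, and the mesenchymal sum was 171 to 177 and 45.1 to 49.4 CPM. The largest part of the epithelial sum was KRT8, at means of 4373 and 2570 CPM. The sum understates the falls of CDX2, KRT20 and VIL1. Their means were 257, 47.1 and 37.6 CPM with the control label and 31.3, 2.48 and 1.95 CPM with the other. Against these sums KRT19 was higher with the TWIST1 shRNA label (637 and 866 CPM), and so was SNAI2 (0.02 and 2.07 CPM). ZEB2 had at most 2 counts in a LoVo library. Mitochondrial transcripts took 10.9% of the counts in the library labelled TWIST1 shRNA 1 and 2.38 to 6.24% in the others. That library also differed from its group over all genes. The chi-square per degree of freedom between 2 libraries is 1 for counting noise alone. It was 20.6 and 31.5 for TWIST1 shRNA 1 against TWIST1 shRNA 2 and 3, and 4.44 between the latter. Within the other groups it was 2.13 to 6.00. In bulk RNA, fewer cells of a type and less RNA per cell cannot be told apart.

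Promoters of the members that the results turn on are shown first, with the HIF core motif marked. RefSeq windows from 250 bases before to 50 bases after the start (GRCh38.p14) were found for 33 of the 38 members, and not for SLC2A3, SLC16A1, VEGFA, NDRG1 and BNIP3L. The motif was searched as ACGTG or GCGTG on both strands, and is in capitals below, as CACGT or CACGC where it lies on the other strand. It occurred in 24 of the 33 windows (72.7%), against 48.4% of 35116 RefSeq promoters. The stricter ACGTG occurred in 14 windows (42.4%, against 21.4% of all), and CATCTG, an E-box of the kind that TWIST1 can bind, in 4 windows (12.1%, against 14.7%). A match is a run of letters and not a shown binding site. The windows of SLC16A3 (chr17:82228185-82228484, plus strand), ADM (chr11:10304823-10305122, plus strand), PFKFB4 (chr3:48556754-48557053, minus strand) and HK2 (chr2:74833877-74834176, plus strand) belong to the members called in the most clones. Those of ANKRD37 (chr4:185396591-185396890, plus strand) and LDHA (chr11:18394313-18394612, plus strand) are given beside them because they hold 3 and 6 matches. A CACGTG reads as the motif on both strands and is counted once for each strand, so these windows show fewer marked stretches than matches.
SLC16A3: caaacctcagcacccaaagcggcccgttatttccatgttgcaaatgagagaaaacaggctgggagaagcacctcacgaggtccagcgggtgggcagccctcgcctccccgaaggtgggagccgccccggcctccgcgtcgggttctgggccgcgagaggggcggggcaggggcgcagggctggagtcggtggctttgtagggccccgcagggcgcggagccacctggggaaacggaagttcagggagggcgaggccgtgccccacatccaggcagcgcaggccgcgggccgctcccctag
ADM: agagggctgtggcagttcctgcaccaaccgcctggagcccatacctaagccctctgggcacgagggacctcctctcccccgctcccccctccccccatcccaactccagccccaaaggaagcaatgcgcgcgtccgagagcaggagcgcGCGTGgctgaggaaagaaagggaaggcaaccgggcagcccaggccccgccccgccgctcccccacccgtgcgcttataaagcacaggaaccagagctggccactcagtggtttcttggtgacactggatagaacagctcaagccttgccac
PFKFB4: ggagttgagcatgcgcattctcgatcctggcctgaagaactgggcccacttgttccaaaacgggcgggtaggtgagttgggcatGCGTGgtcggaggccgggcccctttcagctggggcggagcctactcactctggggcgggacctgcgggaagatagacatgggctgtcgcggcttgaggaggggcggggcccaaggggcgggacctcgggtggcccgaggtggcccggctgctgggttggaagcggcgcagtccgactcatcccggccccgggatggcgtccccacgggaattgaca
HK2: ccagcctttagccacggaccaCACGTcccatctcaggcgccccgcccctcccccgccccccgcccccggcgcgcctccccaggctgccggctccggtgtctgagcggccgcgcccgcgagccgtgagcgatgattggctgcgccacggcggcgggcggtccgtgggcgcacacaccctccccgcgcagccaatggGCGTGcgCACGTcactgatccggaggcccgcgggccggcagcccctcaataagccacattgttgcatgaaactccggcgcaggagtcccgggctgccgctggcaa
ANKRD37: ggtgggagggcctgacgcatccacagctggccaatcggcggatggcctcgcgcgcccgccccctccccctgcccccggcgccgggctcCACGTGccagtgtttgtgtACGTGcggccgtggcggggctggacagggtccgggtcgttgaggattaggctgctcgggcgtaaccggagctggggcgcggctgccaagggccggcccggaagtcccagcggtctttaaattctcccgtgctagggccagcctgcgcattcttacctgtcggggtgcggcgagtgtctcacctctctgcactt
LDHA: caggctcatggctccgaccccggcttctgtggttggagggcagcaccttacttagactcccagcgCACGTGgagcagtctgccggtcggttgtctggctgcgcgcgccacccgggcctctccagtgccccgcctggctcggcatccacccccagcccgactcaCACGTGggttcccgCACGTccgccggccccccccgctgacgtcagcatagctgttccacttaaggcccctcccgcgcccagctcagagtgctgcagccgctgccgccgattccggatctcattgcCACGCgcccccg
SLC16A3 had 0 matches in its window, ADM and PFKFB4 had 1 each and HK2 had 3. For SLC16A3, PFKFB4 and ANKRD37 the RefSeq start lies inside the gene as the count table bounds it, so these windows describe 1 of several starts.

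In MDST8, 4 of the 38 genes had too few counts to be tested (CA9, CA12, ALDOC and EGLN3) and 34 were tested. A gene was called changed when its log2 fold change against WT passed 0.58 in either direction and its adjusted p was under 0.05, by the edgeR quasi-likelihood test, Benjamini-Hochberg adjusted over 13706 genes. By that rule 4 members rose and 2 fell in clone 1.1, 2 rose and 2 fell in clone 2.2, 3 rose and 2 fell in clone 3.2, 3 rose and 1 fell in clone 3.5, and 4 rose and 7 fell in clone 3.6. Over all genes tested the share called was 19.5% in clone 1.1 (12% up and 7.49% down), 14.7% in 2.2 (8.05% and 6.64%), 17% in 3.2 (10.9% and 6.09%), 18.5% in 3.5 (11.2% and 7.25%) and 27% in 3.6 (15.3% and 11.7%). Without library size normalization the share of rises among all called genes went from 64.1 to 74.3% in clone 3.2 and from 56.7 to 71.0% in clone 3.6, where the members called became 4 up and 3 down. The libraries of clone and WT did not overlap for 26, 28, 27, 22 and 28 members in the same order of the clones, beside 65.9%, 61.2%, 64.5%, 64.6% and 70.5% of all genes. The members' median log2 fold change was -0.13, 0.01, -0.19, -0.05 and -0.07 in the order of the clones, beside medians of -0.01 to 0.00 over all genes. The 5 comparisons share the same 3 WT libraries.

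SLC16A3, ADM and PFKFB4 rose in at least 3 clones and HK2 fell in at least 3, whereas 21 of the 34 tested members were called in no clone. A rise in at least 3 clones was called for 10.6% of all genes tested and a fall for 5.65%. SLC16A3, ADM and PFKFB4 rose in at least 4 clones (6.97% of all genes), and SLC16A3 and ADM in all 5 (3.17%, with falls in all 5 for 1.06% of all genes and for 0 members). Every library of every clone lay above all WT libraries for 7 tested members (PFKFB3, PFKFB4, PKM, SLC16A3, ADM, P4HA2 and KDM3A), and below them for 6 (HK2, TPI1, PGAM1, ENO1, LDHA and BNIP3), among the 34 tested, and EGLN3, with too few counts to be tested, also lay below in each. Such separation in all 5 clones was seen upwards for 12.8% and downwards for 14.7% of all genes.

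**Figure D1:**
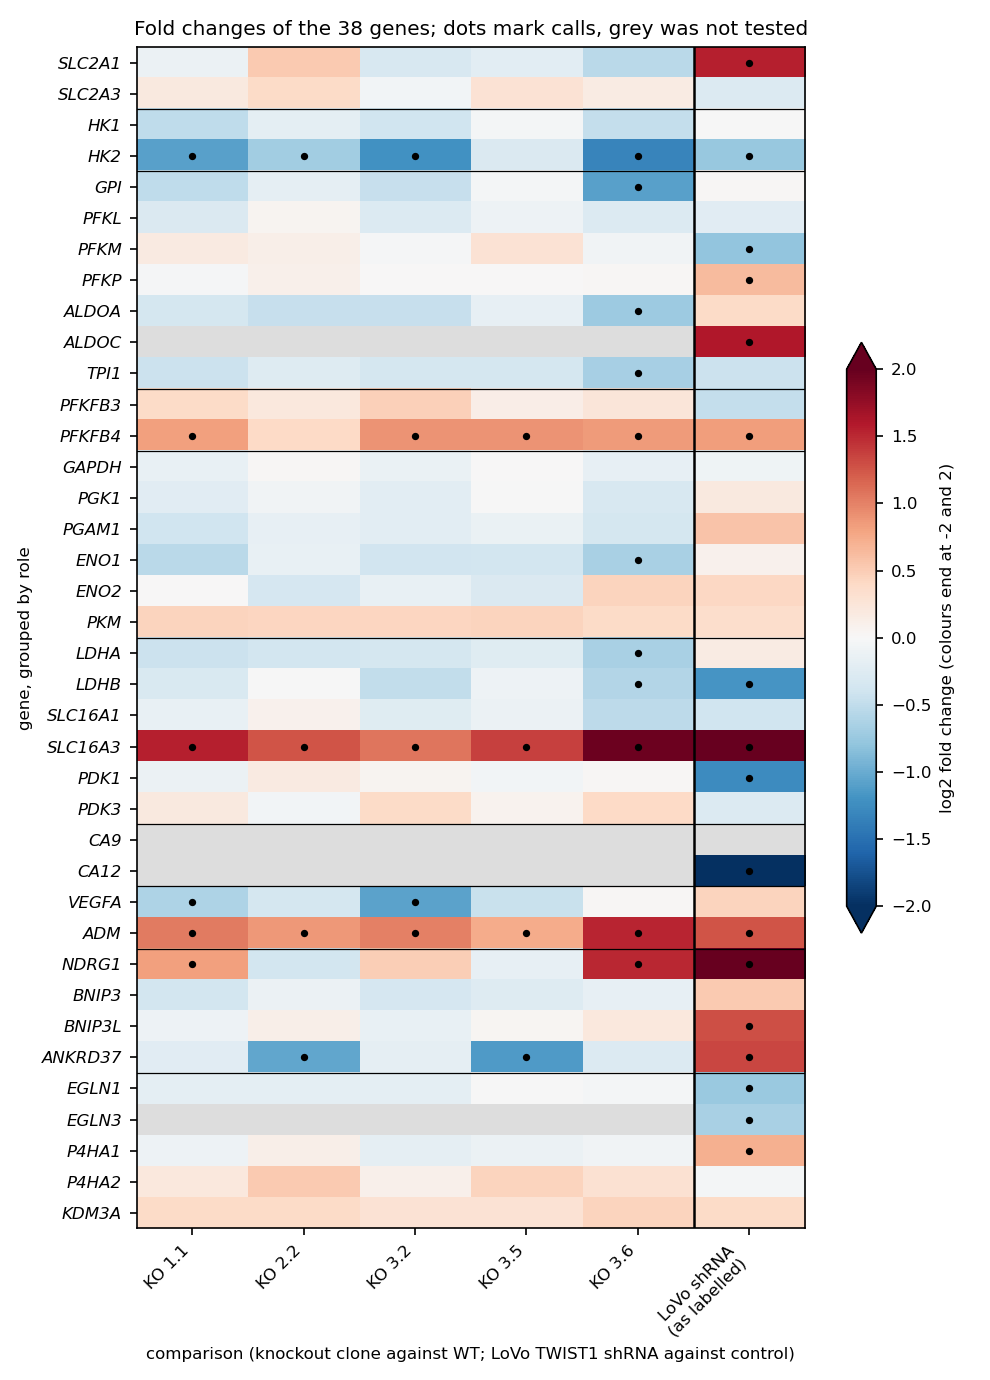
Log2 fold change of the 38 members (rows) in the 5 MDST8 clones against WT and in LoVo, TWIST1 shRNA against shRNA control as labelled (columns), with colours ending at -2 and 2. Dots mark called genes and grey marks genes not tested. SLC16A3 and ADM are called up in all 6 columns, HK2 is called down in 5 of them, and within MDST8 no other enzyme of the main chain from glucose to lactate carries a dot outside clone 3.6.

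The member with the largest rise was SLC16A3, which encodes MCT4, the carrier that exports lactate from glycolytic cells. In WT it measured 21.9, 23.5 and 20.1 CPM, the count scaled to a fixed library size with TMM factors within the cell line. Clone 1.1 gave 64.8, 71.0 and 55.8 CPM and clone 2.2 gave 55.4, 49.1 and 52.0. Clone 3.2 gave 44.3, 45.8 and 46.8 CPM, clone 3.5 55.2, 55.6 and 59.0, and clone 3.6 85.9, 84.9 and 85.5. All 15 clone libraries lay above the WT libraries, and clone 3.6 was the highest. The log2 fold change was 1.55 ± 0.07 in clone 1.1, 1.25 ± 0.07 in 2.2, 1.06 ± 0.07 in 3.2, 1.37 ± 0.07 in 3.5 and 1.97 ± 0.07 in 3.6, with adjusted p of 2.24e-23 to 6.49e-15 by the edgeR quasi-likelihood test, Benjamini-Hochberg adjusted. In the annotation, 5.2% of the exon bases of SLC16A3 are shared with CSNK1D on the opposite strand.

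None of the other 5 lactate and pyruvate genes was called up in any clone. SLC16A1, the gene of the related carrier MCT1, had log2 fold changes of -0.15, 0.08, -0.25, -0.11 and -0.53 in the order of the clones and was called in none. Per length, SLC16A3 made up 16.9% ± 1.08 (SD, n = 3) of the summed TPM (counts per exon length, scaled to a fixed total) of both carriers in WT. That share was 39.7% ± 2.21 in clone 1.1, 31.5% ± 1.52 in 2.2, 33.5% ± 0.862 in 3.2, 36.2% ± 1.6 in 3.5 and 53.4% ± 0.505 in 3.6. LDHA, which encodes the lactate dehydrogenase subunit that favours making lactate, was lower than WT in every clone library, at log2 fold changes of -0.43, -0.37, -0.35, -0.24 and -0.65, and fell by the full rule only in clone 3.6. LDHA measured 850.1, 831 and 827 CPM in WT and 548, 519 and 535 CPM in clone 3.6 (adjusted p = 6.31e-19 by the edgeR quasi-likelihood test, Benjamini-Hochberg adjusted). The kinases that keep pyruvate out of mitochondria, PDK1 and PDK3, were called in no clone, at -0.12 to 0.18 and -0.06 to 0.40.

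LDHB, the other subunit of lactate dehydrogenase, measured 22.8, 17.9 and 22.3 CPM in WT and 15.1, 15.1 and 11.7 in clone 3.6, and was called lower there at -0.59 ± 0.11. That call was lost with upper-quartile factors (-0.55), with limma on log2(RPM + 1) (-0.56) or on unnormalized counts (-0.47), without WT A (-0.52), without WT C (-0.53) and without clone 3.6 C (-0.48). In the other clones LDHB stood at -0.30, -0.00, -0.49 and -0.10. Its exons overlap those of other genes over 33.4% of their bases, where fragments were not counted.

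ADM encodes adrenomedullin, a secreted vasodilator peptide, and was the other member that rose in all 5 clones. The WT libraries measured 7.52, 8.43 and 8.29 CPM. Clone 1.1 gave 16.6, 17.8 and 15.6 CPM and clone 2.2 gave 17, 14.9 and 12.4. Clone 3.2 gave 17, 15.9 and 15.8 CPM, clone 3.5 12.3, 14.3 and 14.1, and clone 3.6 22.6, 23.2 and 24. No clone library reached down to the WT range, and clone 3.6 was again the highest. The log2 fold change was 1.05 ± 0.10 in clone 1.1, 0.87 ± 0.10 in 2.2, 1.00 ± 0.10 in 3.2, 0.75 ± 0.10 in 3.5 and 1.53 ± 0.10 in 3.6 (adjusted p 4.64e-16 to 1.44e-07, the edgeR quasi-likelihood test, Benjamini-Hochberg adjusted).

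VEGFA, the other secreted factor and the main driver of vessel growth, did not follow ADM. It measured 9.17, 12.3 and 10.1 CPM in WT. Clone 1.1 gave 6.54, 6.85 and 7.26 CPM and clone 2.2 gave 8.65, 7.55 and 8.46. Clone 3.2 gave 4.57, 5.29 and 5.14 CPM, clone 3.5 8.35, 7.03 and 7.84, and clone 3.6 9.75, 11.1 and 11.3. Clones 1.1, 2.2, 3.2 and 3.5 lay below WT without overlap and clone 3.6 overlapped it. VEGFA fell in clone 3.2 at -1.07 ± 0.12 (adjusted p = 3.14e-09) and in clone 1.1 at -0.61 ± 0.12 (adjusted p = 2.92e-05, the edgeR quasi-likelihood test, Benjamini-Hochberg adjusted). The fall in clone 1.1 missed the fold threshold with limma on log2(RPM + 1) (-0.57) or on unnormalized counts (-0.58), without WT B (-0.47) and without clone 1.1 A (-0.58). The other clones stood at -0.36, -0.45 and 0.03.

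**Figure D2:**
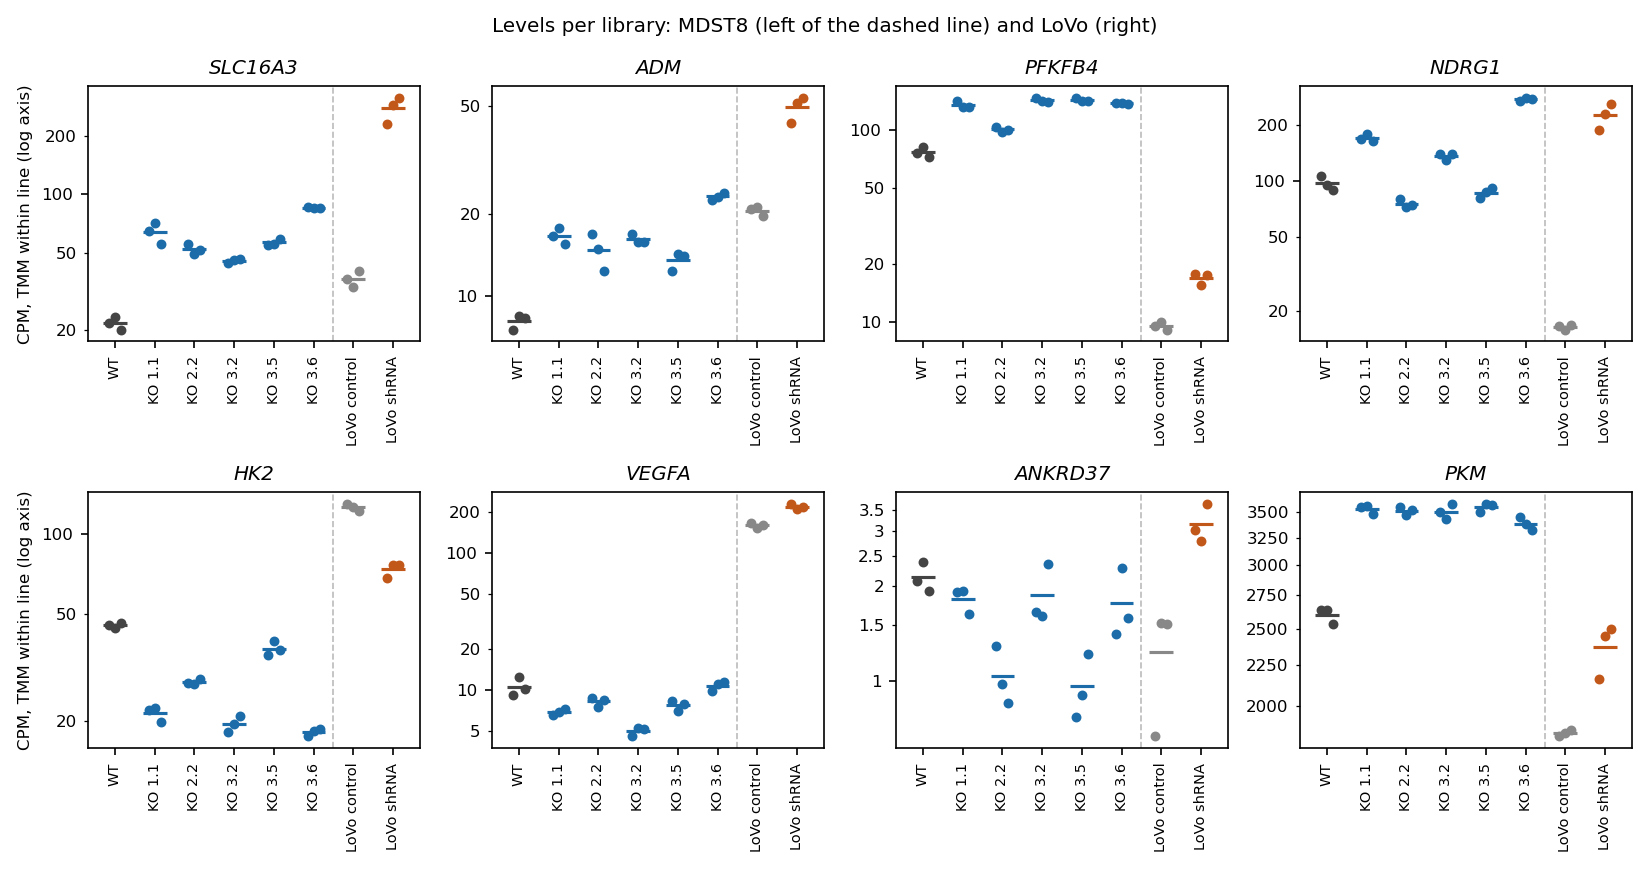
TMM-scaled CPM (log axis, scaled within each cell line) of 8 members in the 24 libraries, with a dot per library and a bar at each group's mean, and a dashed line between MDST8 and LoVo. SLC16A3, ADM and PFKFB4 sit above WT in every clone, HK2 sits below it, NDRG1 is highest in clone 3.6 among the MDST8 groups, and PKM lies between 2533 and 2635 CPM in WT and 3321 and 3579 CPM in the clones.

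The fructose 2,6-bisphosphate regulators set the strongest activator of phosphofructokinase. PFKFB4 measured 76.0, 81.2 and 72.1 CPM in WT. Clone 1.1 gave 142, 132 and 132 CPM and clone 2.2 gave 103, 97.8 and 100.2. Clone 3.2 gave 146, 141 and 139.9 CPM, clone 3.5 147, 140.5 and 141, and clone 3.6 138, 137 and 137. All clone libraries were above WT, and 4 clones sat close together at 132 to 147 CPM while clone 2.2 was lower. PFKFB4 rose in those 4 clones at 0.82 ± 0.04, 0.90 ± 0.04, 0.90 ± 0.04 and 0.85 ± 0.04, with adjusted p of 3.13e-19 to 3.23e-18 by the edgeR quasi-likelihood test, Benjamini-Hochberg adjusted. In clone 2.2 its log2 fold change was 0.39 ± 0.04, under the fold threshold. PFKFB3, the family member with the strongest kinase activity, was also above WT in every clone library but passed the fold threshold in none, at 0.39, 0.21, 0.47, 0.14 and 0.25.

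Hexokinases trap glucose in the cell, and HK2 is the HIF-responsive member of the family. HK2 measured 45.4, 44.5 and 46.4 CPM in WT. Clone 1.1 gave 21.9, 22.3 and 19.8 CPM and clone 2.2 gave 27.8, 27.5 and 28.6. Clone 3.2 gave 18.2, 19.4 and 20.9 CPM, clone 3.5 35.2, 39.7 and 36.7, and clone 3.6 17.5, 18.4 and 18.6. Every clone library was below the WT libraries, with clones 3.2 and 3.6 lowest and clone 3.5 nearest to WT. HK2 fell in 4 clones, at -1.09 ± 0.06 in 1.1, -0.70 ± 0.06 in 2.2, -1.22 ± 0.06 in 3.2 and -1.32 ± 0.06 in 3.6 (adjusted p 3.91e-19 to 7.25e-12, the edgeR quasi-likelihood test, Benjamini-Hochberg adjusted), and stood at -0.29 ± 0.06 in 3.5. A fall in at least 4 clones was called for 3.09% of all genes tested.

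HK1, the constitutive hexokinase, was called in no clone, at -0.52, -0.20, -0.41, -0.04 and -0.48. Per length it accounted for 87.9% ± 0.426 (SD, n = 3) of HK1 and HK2 together in WT, and for 91.5% ± 0.479, 91.1% ± 0.0558, 92.7% ± 0.405, 89.6% ± 0.406 and 92.9% ± 0.346 in the clones. Of the glucose carriers, SLC2A1 (GLUT1) was above WT in clone 2.2 and below it in the other 4 without overlap, but passed the fold threshold in none. Its log2 fold changes were -0.12, 0.52, -0.32, -0.22 and -0.54, and it passed in clone 3.6 without library 3.6 A (-0.58). SLC2A3 (GLUT3) stood at 0.19, 0.39, -0.05, 0.29 and 0.16.

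**Figure D3:**
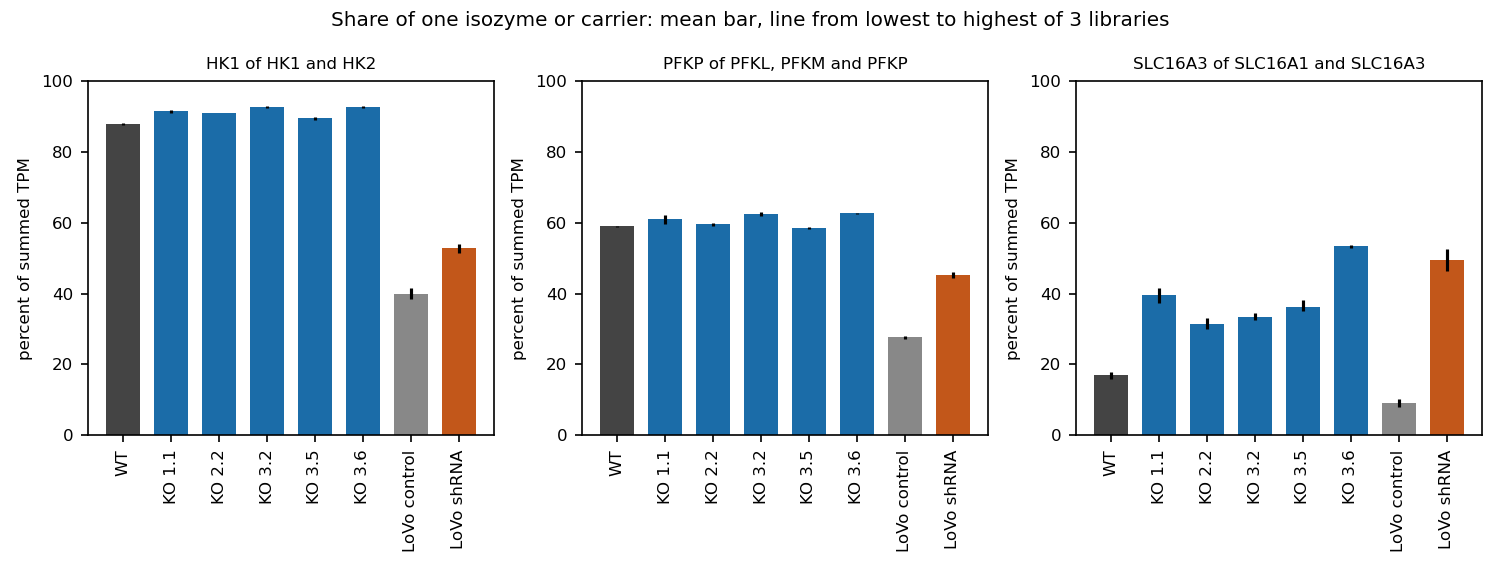
Share of a gene in the summed TPM of its family, in percent, for HK1 among HK1 and HK2, PFKP among the phosphofructokinases PFKL, PFKM and PFKP, and SLC16A3 among SLC16A1 and SLC16A3, in the 8 groups. Bars are means of 3 libraries and lines run from the lowest to the highest library. The SLC16A3 share goes from 16.9% in WT to between 31.5 and 53.4% in the clones, and from 9.13 to 49.6% between the LoVo groups as labelled.

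Apart from HK2, enzymes of the main chain from glucose to lactate were called only in clone 3.6, and all 6 of those calls were falls. GPI, which turns glucose 6-phosphate into fructose 6-phosphate, measured 377, 389 and 378 CPM in WT and 179, 187 and 176 in clone 3.6, lower in each library, and fell at -1.08 ± 0.03 (adjusted p = 2.26e-24, the edgeR quasi-likelihood test, Benjamini-Hochberg adjusted). In the other clones it stood at -0.50, -0.17, -0.46 and -0.04. The other falls in clone 3.6 were of the aldolase ALDOA (-0.72 ± 0.14), the triose phosphate isomerase TPI1 (-0.67 ± 0.03), the enolase ENO1 (-0.64 ± 0.03), LDHA (-0.65 ± 0.03) and LDHB (-0.59 ± 0.11). TPI1 measured 565, 553 and 534 CPM in WT and 356, 341 and 344 in clone 3.6. ENO1 measured 1722, 1736 and 1662 CPM against 1146, 1089.6 and 1048, again without overlap. Without library size normalization TPI1, ENO1 and LDHA stood at -0.54, -0.52 and -0.52 in clone 3.6 and were not called. ALDOA had only 3.73 to 7.89 CPM in MDST8, and 54.2% of its exon bases are shared with other genes, and fragments in shared exons were not counted.

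PKM, the pyruvate kinase gene, had the narrowest range of log2 fold changes over the clones among the tested members. It measured 2634, 2635 and 2533 CPM in WT and 3321 to 3579 in the 15 clone libraries, all higher. Its log2 fold changes of 0.44, 0.43, 0.43, 0.45 and 0.38 had adjusted p of 1.73e-14 to 5.79e-13 by the edgeR quasi-likelihood test, Benjamini-Hochberg adjusted and stayed under the fold threshold in each clone. It was the only tested member for which an F test over the 5 clones gave no difference among them (edgeR adjusted p = 0.246), while the other 33 of the 34 differed, beside 81% of all genes. In the summed TPM of 17 glycolytic enzymes, PKM made up 13% in WT and 17.6 to 19.8% in the clones. The size of this share depends on the exon length used, which was 8572 bases for PKM. The sum itself was 88.2% ± 1.44 of the WT mean in clone 1.1, 97.9% ± 0.594 in 2.2, 91.1% ± 2.17 in 3.2, 92.9% ± 1.43 in 3.5 and 88.3% ± 3.39 in 3.6, with WT at ± 2.38 (SD, n = 3). Scaled by TMM, the sum in clone 2.2 was 100.3% of WT.

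The remaining enzymes were called in no clone. The phosphofructokinases PFKL, PFKM and PFKP ranged over -0.30 to 0.05, -0.06 to 0.29 and -0.02 to 0.11 on the log2 scale. In the lower steps GAPDH ranged over -0.16 to 0.03, PGK1 over -0.32 to -0.01, PGAM1 over -0.40 to -0.13 and ENO2, the neuronal enolase, over -0.34 to 0.45. ENO2 lay above WT only in clone 3.6, where its share of both enolases was 9.17% ± 0.645 against 4.52% ± 0.230 in WT. GAPDH, PGK1, PGAM1, ENO1 and LDHA have processed pseudogenes, and fragments mapping to several places were not counted, so their levels may be understated.

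Of the stress genes, NDRG1, a cytoplasmic protein gene induced by hypoxia and differentiation, differed most among the clones. It measured 107, 95.5 and 89.3 CPM in WT. Clone 1.1 gave 169.7, 179.6 and 164 CPM and clone 2.2 gave 80.1, 72.8 and 74.3. Clone 3.2 gave 140.0, 130.3 and 139 CPM, clone 3.5 80.7, 87.8 and 92.1, and clone 3.6 269, 282 and 277. Clone 3.6 was highest, clones 1.1 and 3.2 were above WT, clone 2.2 was below it, and clone 3.5 overlapped it. NDRG1 rose in clone 3.6 at 1.5 ± 0.05 and in clone 1.1 at 0.82 ± 0.05 (adjusted p = 9.66e-24 and 8.14e-16, the edgeR quasi-likelihood test, Benjamini-Hochberg adjusted). The values of -0.36, 0.49 and -0.16 in clones 2.2, 3.2 and 3.5 were under the fold threshold.

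ANKRD37, a small ankyrin repeat protein gene with HIF motifs in its promoter, was expressed at a low level, with 2.08, 2.39 and 1.93 CPM in WT. Clone 1.1 gave 1.91, 1.92 and 1.63 CPM and clone 2.2 gave 1.29, 0.974 and 0.846. Clone 3.2 gave 1.65, 1.61 and 2.36 CPM, clone 3.5 0.764, 0.899 and 1.21, and clone 3.6 1.41, 2.29 and 1.59. The libraries of clones 1.1, 2.2 and 3.5 were below WT, and those of clones 3.2 and 3.6 overlapped it. It fell in clones 2.2 and 3.5 at -1.04 ± 0.26 and -1.14 ± 0.27 (adjusted p = 0.00105 and 0.000444, the edgeR quasi-likelihood test, Benjamini-Hochberg adjusted). Of its exon bases, 40.3% are shared with UFSP2 on the opposite strand. The mitophagy receptors BNIP3 and BNIP3L were called in no clone, at -0.36 to -0.11 and -0.14 to 0.22.

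The oxygen-dependent enzymes were not called in any clone. EGLN1 (PHD2), the main HIF prolyl hydroxylase, stood at -0.20 to -0.01, and the collagen prolyl hydroxylases P4HA1 and P4HA2 at -0.19 to 0.12 and 0.10 to 0.52. Of the exon bases of EGLN1, 55.8% are shared with another gene, where fragments were not counted. The histone demethylase KDM3A was above WT in every clone library, at 0.38, 0.39, 0.29, 0.29 and 0.45. EGLN3 (PHD3) had 3, 4 and 3 counts in the WT libraries and 0 to 2 in the clone libraries. The surface carbonic anhydrases, which acidify the outside of hypoxic cells, were near 0 in MDST8, with 0 to 3 counts per library for CA9 and 0 to 5 for CA12. ALDOC, the brain aldolase, had 0.449 to 1.51 CPM.

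Beside these results, the summed level of 6 fibroblast markers was 623 to 637 CPM in WT and 312 to 1319 CPM across the MDST8 libraries, and endothelial and leukocyte markers summed to at most 1.72 and 1.51 CPM. Most of the fibroblast sum was COL1A1, at a mean of 610 CPM in WT, followed by LUM at 19.1. COL1A2, COL3A1, DCN and PDGFRA averaged 0.39, 0.27, 0.83 and 1.18 CPM there. The part of these markers in the results was not tested. HIF1A, the gene of the regulated HIF subunit, was lower than WT in every clone, with 312, 306 and 326 CPM in WT. It fell in clones 1.1 and 3.2, at -0.62 ± 0.04 and -0.65 ± 0.04 (adjusted p = 4.99e-16 and 2.36e-16, the edgeR quasi-likelihood test, Benjamini-Hochberg adjusted), and stood at -0.23, -0.49 and -0.46 in the others. HIF is regulated mainly through the stability of its protein, which was not measured. Of 10 tested genes of the HIF machinery, 1 fell in each of clones 1.1, 3.2 and 3.6, none rose in any clone, and none fell in clones 2.2 and 3.5. The gene in clones 1.1 and 3.2 was HIF1A and that in clone 3.6 was CITED2, a competitor of HIF for its coactivators, at -0.58, named after its value was seen.

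Further HIF targets outside the 38 genes were called in both directions. Of 27 tested, 7 rose and 5 fell in clone 1.1, 3 and 3 in clone 2.2, 6 and 6 in clone 3.2, 6 and 3 in clone 3.5, and 8 and 6 in clone 3.6. The shares of all genes called up and down, in the same order of the clones, were 12% and 7.49%, 8.05% and 6.64%, 10.9% and 6.09%, 11.2% and 7.25%, and 15.3% and 11.7%. DDIT4, an inhibitor of mTORC1 induced by stress, rose in all 5 clones at 0.91, 1.44, 0.93, 1.13 and 1.09. IGFBP3, a secreted binder of insulin-like growth factors, fell in all 5 at -1.79, -0.89, -1.70, -1.09 and -1.59. The transcriptional repressor BHLHE40 rose in 4 clones and stood at 0.43 in clone 1.1, with 0.65 to 0.86 elsewhere. ANGPTL4, a secreted lipase inhibitor, fell in 4 clones (-1.26, -0.65, -1.23 and -1.52) and stood at -0.48 in clone 3.5.

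The adenylate kinase gene AK4 differed in direction among the clones, with 2.29, 2.59 and 1.78 CPM in WT. Clone 1.1 gave 7.34, 10.3 and 10.1 CPM and clone 2.2 gave 0.824, 0.828 and 0.635. Clone 3.2 gave 6.5, 5.74 and 5.63 CPM, clone 3.5 17.3, 18.6 and 18.2, and clone 3.6 5.51, 4.84 and 4.81. Clone 2.2 lay below WT and the other 4 above it. AK4 fell in clone 2.2 at -1.53 ± 0.25 and rose in the others, at 2.06, 1.42, 3.02 and 1.19. The F test over the clones in edgeR gave an adjusted p of 9.64e-21. AK4 is outside the 38 genes, of which none was called in both directions, against 2.31% of all genes tested.

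In LoVo 37 members were tested, all but CA9, among 14270 genes. With the TWIST1 shRNA label 10 rose, 7 fell and 20 were not called, beside 52.7% of all genes called (26.6% up and 26.1% down). The groups did not overlap for 31 members, beside 79.8% of all genes. The members' median log2 fold change was 0.16, beside 0.01 over all genes. The epithelial and mesenchymal marker sums given above moved with these labels, and so did the sum of the 6 fibroblast markers, which was 3.39 to 5.99 CPM with the control label and 53.1 to 79.9 CPM with the other, most of it COL1A1. Of those 6 markers 2 had 0 counts in each of these groups. The part of these markers and of the mitochondrial share in the results was not tested.

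The largest change was in NDRG1, which measured 16.6, 15.8 and 16.7 CPM with the shRNA control label and 189.6, 230.3 and 259.7 CPM with the TWIST1 shRNA label. The next largest rise was that of SLC16A3, with 36.6, 33.4 and 40.4 against 231, 287 and 314 CPM. Both sets of libraries stood far apart, and the library labelled TWIST1 shRNA 1 was the lowest of its group for both genes. NDRG1 rose by 3.79 ± 0.10 and SLC16A3 by 2.92 ± 0.10 on the log2 scale (adjusted p = 5.72e-15 and 1.29e-13, the edgeR quasi-likelihood test, Benjamini-Hochberg adjusted). SLC16A3 made up 9.13% ± 1.08 of both lactate carriers per length with the control label and 49.6% ± 3.08 with the TWIST1 shRNA label, while SLC16A1 stood at -0.39.

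CA12, a carbonic anhydrase of the cell surface, was the member that fell most, from 124, 124 and 123 CPM to 11.3, 10.4 and 9.91 CPM. ALDOC measured 13.8, 12.3 and 11 CPM with the control label and 36.2, 37.5 and 38.7 with the other. Both genes were separated without overlap. CA12 fell at -3.56 ± 0.07 (adjusted p = 2.07e-16) and ALDOC rose at 1.6 ± 0.10 (adjusted p = 1.40e-10, the edgeR quasi-likelihood test, Benjamini-Hochberg adjusted). SLC2A1, the main glucose carrier, measured 136, 144 and 136 against 361, 416 and 436 CPM, and rose at 1.55 ± 0.07 (adjusted p = 3.64e-12, edgeR). ANKRD37 measured 0.665, 1.53 and 1.51 against 3.03, 2.79 and 3.65 CPM, low in both groups but without overlap, and rose at 1.33 ± 0.30 (adjusted p = 0.000738, edgeR).

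**Figure D4:**
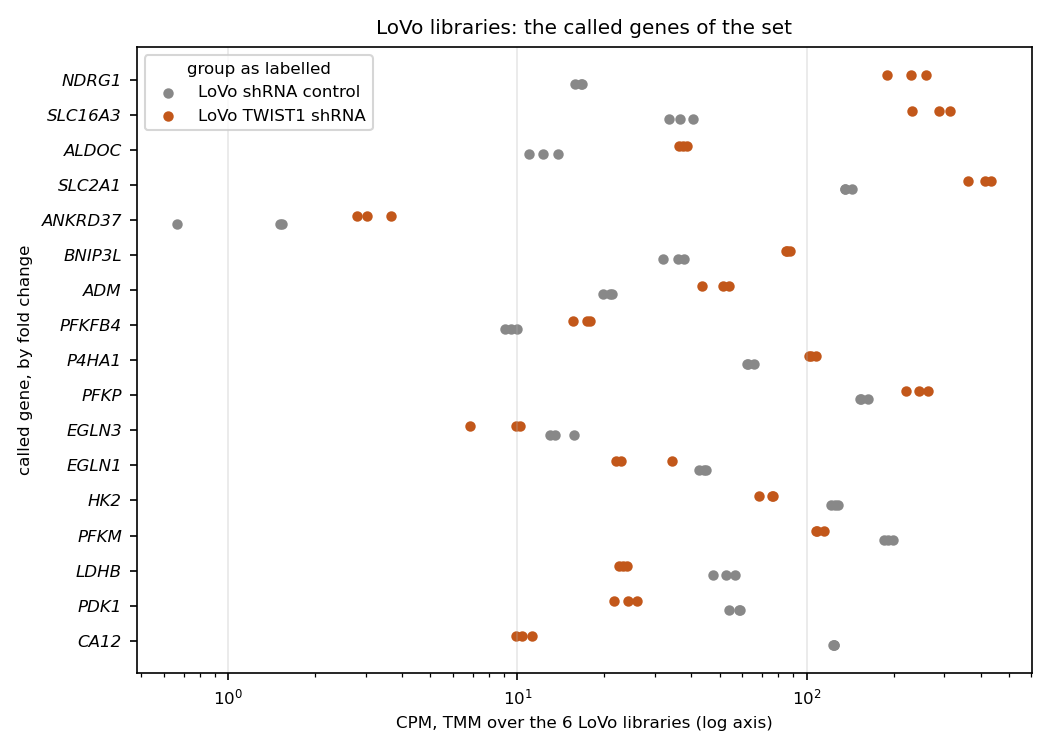
TMM-scaled CPM (log axis) of the 17 members called in LoVo, with a dot per library for the groups labelled shRNA control and TWIST1 shRNA. The 10 genes called up and the 7 called down are separated without overlap, with the widest gaps for NDRG1, SLC16A3 and CA12.

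The mitophagy receptor BNIP3L measured 37.8, 36.0 and 31.8 against 85.9, 87.4 and 85.1 CPM and rose at 1.29 ± 0.07, and ADM measured 20.9, 21.2 and 19.7 against 43.5, 51.4 and 53.9 CPM and rose at 1.26 ± 0.09. PFKFB4 rose at 0.83 ± 0.11, from 9.49, 9.92 and 9.07 to 17.8, 15.5 and 17.4 CPM. The collagen hydroxylase P4HA1 and the platelet phosphofructokinase PFKP rose at 0.71 ± 0.06 and 0.63 ± 0.07. PFKP missed the fold threshold without the library labelled TWIST1 shRNA 3 (0.57) and with no filter on low genes (0.57). With the muscle form PFKM falling at -0.79 ± 0.06, PFKP went from 27.7% ± 0.418 to 45.2% ± 0.862 of the 3 phosphofructokinases per length, and PFKM from 36.3% ± 1.36 to 22.2% ± 1.64.

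The other falls were of PDK1 (-1.26 ± 0.08), LDHB (-1.18 ± 0.08), HK2 (-0.76 ± 0.06), EGLN1 (-0.74 ± 0.13) and EGLN3 (-0.65 ± 0.15). EGLN1 shares 55.8% of its exon bases with another gene, and fragments there were not counted. HK2 measured 129, 126 and 121 CPM with the control label and 68.5, 76.6 and 76.2 with the other, and HK1 made up 39.8% ± 1.65 and 52.8% ± 1.34 of both hexokinases per length. The fall of EGLN3 missed the fold threshold with upper-quartile factors (-0.56), with limma on log2(RPM + 1) (-0.54), without control C (-0.57) and without TWIST1 shRNA 1 (-0.47). Conversely PGAM1 (0.57 with all libraries) and BNIP3 (0.52) passed it without control B (0.61 and 0.61) or without TWIST1 shRNA 1 (0.64 and 0.62), and also with upper-quartile factors (0.67 and 0.61).

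The enzymes of the main chain that were not called in LoVo included ALDOA (0.38), TPI1 (-0.43), PKM (0.36), PGK1 (0.20), LDHA (0.16), GAPDH (-0.09), ENO1 (0.08), ENO2 (0.41), PFKL (-0.22), HK1 (-0.01) and GPI (0.03). Nor were SLC2A3 (-0.27), PFKFB3 (-0.47), PDK3 (-0.28), P4HA2 (-0.04) and KDM3A (0.39). VEGFA, at 0.45 ± 0.06, was above the control without overlap and under the fold threshold. CA9 had 0 counts in 4 of the 6 LoVo libraries and at most 0.116 CPM in the others. HIF1A rose at 0.71 ± 0.06 (adjusted p = 1.31e-08, the edgeR quasi-likelihood test, Benjamini-Hochberg adjusted). Of 10 tested genes of the HIF machinery 2 rose (HIF1A and VHL) and 4 fell (ARNT2, EGLN2, CREBBP and CITED2, named after their values were seen), and of 28 further HIF targets 12 rose and 4 fell. Beside these counts, 26.6% of all genes tested in LoVo were called up and 26.1% down.

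Set beside the clones, SLC16A3, ADM and PFKFB4 were higher and HK2 was lower with the TWIST1 shRNA label too. The libraries with that label are the ones in which TWIST1 RNA was present. These genes were picked by their calls in at least 3 clones. Of all genes tested in LoVo, 26.6% were called up and 26.1% down. The share of all genes called the same way in the clones and in LoVo was not computed. NDRG1 and ANKRD37 rose in LoVo, whereas NDRG1 rose in 2 clones and ANKRD37 fell in 2. VEGFA fell in 2 clones and was above the control in LoVo, under the fold threshold. Outside the members, HIF1A fell in 2 clones and rose in LoVo as labelled. PC and TMEM45A fell in 4 clones and also rose in LoVo as labelled. Whether the LoVo and clone effects differ was not tested.

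Between the lines as grown, LoVo with the control label against MDST8 WT, 36 members were tested and 15 were higher in LoVo, 8 lower and 13 not called, beside 64.5% of all genes called (30.4% higher and 34.2% lower in LoVo). The groups did not overlap for 35 members, beside 87.4% of all genes. The members' median log2 difference was 0.44, beside -0.07 over all genes. The line and the handling of its libraries cannot be told apart. On a scale fitted over all 24 libraries, CA12 measured 0.157, 0.0997 and 0.100 CPM in MDST8 WT and 129, 131 and 129 in LoVo. With 7 counts in all in MDST8 WT and 6776 in LoVo, the ratio after scaling to depth was 1098, with a 95% interval of 532 to 2731 that covers counting error only. ALDOC measured 0.523, 0.897 and 0.650 CPM in MDST8 WT against 14.4, 12.9 and 11.5 CPM, a log2 difference of 4.21 ± 0.20 (adjusted p = 8.02e-20, the edgeR quasi-likelihood test, Benjamini-Hochberg adjusted). VEGFA measured 8.99, 12.1 and 9.90 CPM against 172, 161 and 169 CPM, a log2 difference of 4.02 ± 0.07 (adjusted p = 3.04e-32, edgeR). All 3 genes were higher in each LoVo library.

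PFKFB4 and NDRG1 differed the other way. PFKFB4 measured 74.5, 79.7 and 70.9 CPM in MDST8 WT and 9.87, 10.4 and 9.51 in LoVo, and NDRG1 105, 93.7 and 87.8 against 17.3, 16.7 and 17.5 CPM. Their log2 differences were -2.91 ± 0.06 and -2.48 ± 0.09 (adjusted p = 8.03e-30 and 4.61e-23, the edgeR quasi-likelihood test, Benjamini-Hochberg adjusted). Also higher in LoVo were SLC16A1 (1.86), HK2 (1.55), ADM (1.44), LDHB (1.41), PDK3 (1.08), PFKM (1.07), PDK1 (1.06), ALDOA (0.89), SLC16A3 (0.84), SLC2A3 (0.69), GPI (0.61) and P4HA1 (0.61). Lower were HK1 (-1.90), BNIP3L (-1.6), PFKP (-1.55), BNIP3 (-1.07), PGAM1 (-0.95) and ANKRD37 (-0.67). The call of ANKRD37 was lost without WT B (-0.57) and without control A (-0.39). With upper-quartile factors GPI and P4HA1 stood at 0.57 and 0.57 and were not called, and with no filter P4HA1 (0.58) missed the fold threshold. The 13 members not called lay between -0.42 (PGK1) and 0.56 (SLC2A1). EGLN3 was not tested here, and measured 0.157, 0.199 and 0.150 CPM in MDST8 WT and 13.5, 14.2 and 16.4 in LoVo.

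Per length, both lines shared the order of the most abundant members only in part. In MDST8 WT the highest were GAPDH at 3643 ± 118 TPM (SD, n = 3), ENO1 at 1381 ± 39.3, PKM at 1281 ± 34.6 and TPI1 at 861 ± 25.6. In LoVo with the control label they were GAPDH at 3649 ± 76.6 TPM, TPI1 at 958 ± 9.50, ENO1 at 919 ± 5.34 and PKM at 797 ± 6.46. GAPDH stood well apart from the next gene in both lines by this measure. The exon length behind TPM was 8572 bases for PKM and 2396 for GAPDH, and the order depends on it. By median count over the 24 libraries PKM was the higher, at 66293 against 39908. ALDOA may be understated here, since 54.2% of its exon bases are shared with other genes and fragments there were not counted. The summed TPM of the 17 enzymes in LoVo was 80.9% ± 0.840 of the MDST8 WT mean with the control label and 75.1% ± 10.1 with the TWIST1 shRNA label, and 98.4% and 97.5% of it when scaled by TMM.

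**Figure D5:**
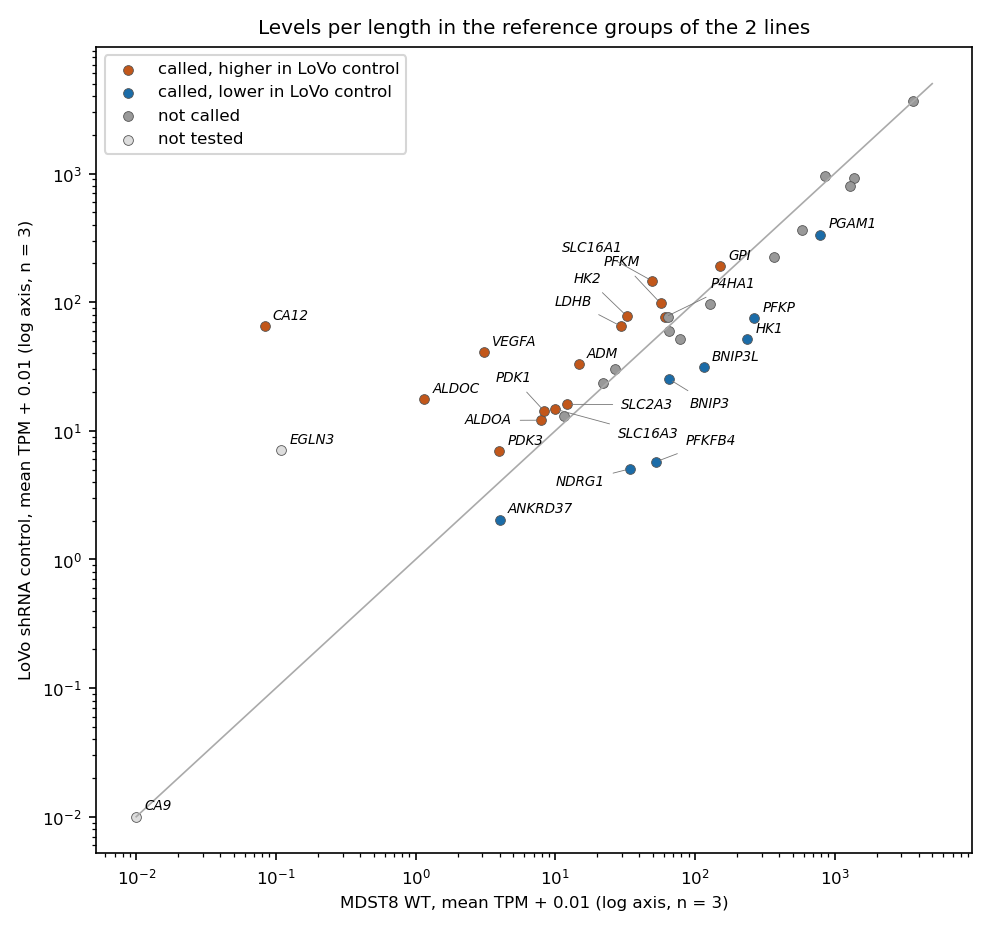
Mean TPM + 0.01 of the members in MDST8 WT (horizontal) and LoVo labelled shRNA control (vertical), both on log axes, each point the mean of 3 libraries and the line marking equal levels. CA12, ALDOC and VEGFA lie far above the line, and PFKFB4, NDRG1, HK1, BNIP3L and PFKP lie below it. GAPDH, TPI1, ENO1 and PKM, the most abundant members, lie closer to it.

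The ChIP-seq lists were used only to say which members have a listed TWIST1 peak within 3000 bp of the 5' end of the gene. In MDST8 27 of the 34 tested members had one (79.4%), beside 76.5% of all genes tested, and in LoVo 14 of 37 (37.8%), beside 58.2%. No member's peak reached a q-value of 0.05, with smallest q-values of 0.274 for CA12 in MDST8 and 0.0999 for EGLN3 in LoVo. HK2 had 3 listed peaks in MDST8 (smallest p 0.000584) and 1 in LoVo (p 1.26e-05, q 0.173), at chr2:74834297-74834702, downstream of the window printed above. ADM had 2 and 1, PFKFB4 3 and 1, and ANKRD37 4 and 1. A MDST8 peak at chr4:185396714-185396999 (p 0.000234, q 0.544) overlaps the ANKRD37 window printed above. SLC16A3, HK1, PFKFB3, GAPDH and LDHB had none in either list within that distance. For SLC16A3 and PFKFB4 that window does not reach the promoters printed above, which were not searched. The same holds for the RefSeq windows of EGLN3, P4HA2, PGK1, LDHB and GPI. For EGLN3 the 5' end used was chr14:34462774, far from its RefSeq window at chr14:33951025-33951324. Its listed peaks thus lie at the outermost annotated start and not at the RefSeq promoter. Each list comes from 1 library without replicates.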

How the data were processed

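RNA-seq counts of 24 libraries and 2 TWIST1 ChIP-seq peak lists were analysed. The authors trimmed reads with Trim Galore 0.6.6, aligned them to hg38 with HISAT2 2.1.0 and made one count of fragments per GENCODE gene with featureCounts 2.0.0, deposited without normalization. Per the file headers, strand was not used, and fragments matching several genes or places were not counted. For each peak the authors deposited a score, a fold enrichment (a ratio), and -log10 p- and q-values from MACS2 2.2.7.1 (after Bowtie2 2.4.5 and SAMtools 1.6), kept at p under 0.05. Tool versions are from the submitters' processing notes.

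Genes with a geometric mean of RPM + 1, minus 1, of at least 1 within a line were tested in edgeR 4.0.16 (R 4.3.3, TMM, quasi-likelihood), with the 18 MDST8 libraries in 1 fit, the 6 LoVo libraries in another, and all 24 for the difference between lines. Benjamini-Hochberg adjustment ran over all genes tested, and calls needed a log2 change past 0.58 either way with adjusted p under 0.05. TPM used the deposited exon lengths, another value in bp. Log2 fold changes are given ± SE and levels and shares ± SD. Peaks were assigned within 3000 bp of a gene's 5' end. Alternatives used limma 3.58.1, DESeq2 1.42.0, other normalizations, filters and windows. The tests were tried on simulated counts. Values per library are given for members called in one direction in at least 3 clones, the 3 largest calls per clone, the 6 largest in LoVo and the 5 largest between lines. Outside the 38 genes, those called one way in at least 4 clones (at most 8) or among the 5 largest calls in LoVo are named, except a gene that is not reported here. HIF1A and the genes behind a few small counts are named in addition, after their values were seen. Members and lists were chosen with earlier results of these data known.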

Additional observations from a re-analysis of the deposited data

Results flagged for a closer look

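The effects of the 5 clones against the same WT libraries differed among the clones for 33 of the 34 tested members (F test in edgeR, quasi-likelihood, Benjamini-Hochberg over all genes), beside 81% of all genes tested. Among the members named for their changes the adjusted p from edgeR was 2.34e-26 for NDRG1, 4.68e-16 for HK2, 1.94e-14 for SLC16A3, 4.76e-13 for PFKFB4, 7.05e-09 for ADM, 2.49e-08 for VEGFA and 0.0016 for ANKRD37. For SLC16A3 and ADM the difference lies in size only, since all 15 clone libraries were above WT. For HK2 all 15 were below it. For NDRG1 the clones lay on both sides of WT, with clone 3.6 highest and clone 2.2 below WT.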

How the results depend on the processing

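The counts of members called in the clones were 6, 4, 5, 4 and 11 in the order 1.1, 2.2, 3.2, 3.5 and 3.6, and DESeq2 gave the same counts. Without the fold threshold they were 28, 27, 28, 22 and 26, and 32 in LoVo in place of 17. Of all genes, that setting called 8683, 7706, 8365, 8386 and 9480 of 13706 in the clones, and 11204 of 14270 in LoVo. Without library size normalization (limma on log2(count + 1)) clone 3.6 had 7 called members in place of 11, and 21 members in place of 33 differed among the clones. Of all 13706 genes, 3785 in place of 3704 were then called in clone 3.6, and 8377 in place of 11102 differed among the clones. Leaving out 1 library at a time gave 5 to 6, 4, 5, 4 and 10 to 12 called members in the clones, 31 to 33 differing among them, 16 to 19 in LoVo and 22 to 23 between the lines. The replicate letters did not pair the samples, with correlations of -0.106 to 0.120 with the WT library of the same letter, and a replicate block gave 6, 4, 5, 4 and 11 called members and 33 differing among the clones, with 0 calls lost or gained. Members with a listed peak numbered 15 in MDST8 (44.1%, beside 53.4% of all genes tested) and 8 in LoVo (21.6%, beside 32.4%) within 1000 bp. Within 5000 bp they numbered 29 in MDST8 (85.3%, beside 86.3%) and 26 in LoVo (70.3%, beside 71.8%). For peaks with p no higher than 0.001 they numbered 12 (35.3%, beside 28.3%) and 6 (16.2%, beside 18.8%). For peaks with q no higher than 0.05 they numbered 0 and 0, beside 0.642% and 0.35% of all genes. With TMM-scaled library sizes the sum of 17 enzymes was 89.7% of WT in clone 1.1, 100.3% in 2.2, 98.6% in 3.5, and 98.4% and 97.5% in LoVo with the control and the TWIST1 shRNA label. Of the single log2 fold changes, 1443 kept their direction and call when a library was left out, 5 became called and 10 lost the call. Under the other settings 2283 kept them, 122 became called and 14 lost the call, and 57 differed in sign without being called in either. Upper-quartile factors moved the median of all genes to 0.10 in LoVo and -0.12 between the lines. The cause of these differences was not tested. ANKRD37, at 0.665 to 3.65 CPM, had the lowest level of the members called within a line, and its calls are the least precise.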

Other observations

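The lists of pathways around glycolysis are small, and their counts stand beside 14.7 to 27% of all genes called in a clone and 52.7% in LoVo. Of 10 tested genes that take pyruvate into mitochondria, 0 were called in any clone, and 1 rose (PDP1, a pyruvate dehydrogenase phosphatase, at 2.96) and 6 fell in LoVo as labelled. Of 8 tested genes of the pentose phosphate pathway and gluconeogenesis, 0 rose in any clone, and 0, 2, 2, 1 and 1 fell in clones 1.1, 2.2, 3.2, 3.5 and 3.6, namely PC and, in clones 2.2 and 3.2, PCK2. PC, the pyruvate carboxylase gene, measured 37.6, 40.7 and 36.4 CPM in WT and fell in 4 clones at -0.69 (2.2), -0.68 (3.2), -0.90 (3.5) and -0.73 (3.6), with -0.55 in clone 1.1. In LoVo PC rose at 0.72 as labelled. The gluconeogenic enzyme FBP1 measured 17.8, 17.7 and 17.3 CPM in LoVo with the control label and 1.2, 0.640 and 0.830 CPM with the TWIST1 shRNA label, and fell at -4.28 ± 0.19.

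Of 5 tested glucose sensing genes 1 fell in clone 3.2 (TXNIP) and 2 in clone 3.6 (TXNIP and MYC, the latter at -1.08). TXNIP, whose product limits glucose uptake, measured 15.1, 16.7 and 15.8 CPM in MDST8 WT and stood at -0.32, 0.02, -0.60, 0.40 and -0.86 in the order of the clones. In LoVo TXNIP measured 271, 286 and 272 CPM with the control label and 13, 14 and 10.9 CPM with the TWIST1 shRNA label, and fell at -4.45 ± 0.08. Of 4 tested other isozymes of glycolysis 1 rose in each of clones 3.2 and 3.6, the muscle enolase ENO3, at 0.69 and 0.79. PDP1, PCK2, MYC and ENO3 are named after their values were seen.

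Of the further HIF targets, TMEM45A, a transmembrane protein gene, fell in 4 clones at -1.24 (1.1), -1.15 (3.2), -1.41 (3.5) and -1.96 (3.6), with 0.04 in clone 2.2. In LoVo TMEM45A rose at 5.19 ± 0.27 as labelled. LOX, which crosslinks collagen, rose in 4 clones at 0.79, 0.59, 0.81 and 0.66 (2.2, 3.2, 3.5 and 3.6). The related LOXL2 was called in no clone and rose in LoVo at 7.37 ± 0.14, from 0.604, 0.691 and 0.560 CPM to 95.5, 101 and 115 CPM. No set of these genes was tested as a set.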
